A study of Mus musculus with 16 samples.

Results

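The genes of the mitochondrial ribosome were followed in H3K27Ac ChIP-seq of adult mouse cardiomyocytes. H3K27Ac, histone H3 acetylated at lysine 27, marks active promoters and enhancers. Members were all genes whose symbol begins with Mrpl or Mrps and a number in any of the 4 H3K27Ac peak lists, which gave 60 genes among the 10927 genes that the lists name. Of the 60, 59 had a promoter peak, defined as a peak that the list names for the gene at most 3000 bp from an annotated transcript start, in at least 1 list. The lists name 1 gene per peak, so a gene without a promoter peak can lie under one named for a neighbour. Mrps27 was named only for intronic peaks. The other 9883 genes with a promoter peak served as the comparison.

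Cardiomyocytes came from hearts of 3-month-old mice, either Des+/+ or Des-/-, which lack desmin, the muscle intermediate filament protein. They were isolated by enzymatic perfusion from mice at rest (basal) or after swimming exercise (swim), a mild stress on the heart. The 4 libraries were therefore Des+/+ basal, Des-/- basal, Des+/+ swim and Des-/- swim. Each was 1 library from chromatin of several pooled mice, so no value below has a replicate check, no test between libraries was possible, and intervals cover counting error only. All 12 cardiomyocyte markers examined had a promoter peak in 3 of the lists and 7 of 12 in Des-/- swim. Those 7 were lower there than in Des+/+ swim by a median relative log2 change of -0.65, with 7 of 7 below 0 and 4 past 1.5-fold, so this library stands apart. Endothelial markers with a peak in both swim lists were lower there too, at -0.33 with 4 of 5 below 0. Nuclear oxidative phosphorylation genes were at -0.18, with 43 below 0 and 18 above. Of the leukocyte markers (5) and the smooth muscle and pericyte markers (4), 0 had one in any list. Of the 6 endothelial markers 5 or 6 did in every list, and of the 6 fibroblast markers 0 to 2 did. The lists held between 10407 and 16638 peaks, and read totals per library are not in the lists, so depth is unknown beyond the peak heights. Des itself carried promoter peaks of 30, 46, 24 and 37 reads in the order of the libraries above, so this mark does not check the genotype labels.

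Mitochondrial ribosomes translate the few proteins that mitochondrial DNA encodes, all of them core subunits of the respiratory chain and ATP synthase. Every protein of these ribosomes is encoded in the nucleus, made in the cytosol and imported. Some are counterparts of bacterial ribosomal proteins and others were added in the mitochondrial lineage. Cardiac muscle depends heavily on this system, and inherited defects in several of its genes, MRPL3, MRPL44, MRPS14 and MRPS22 among them, are known to affect the human heart.

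H3K27Ac peaks named for Mrp promoters were lower and more often near the smallest height a list holds, which is 15 reads, than those of other genes. Height counts the reads that overlap at the peak. In Des+/+ basal the 45 members with a promoter peak had a median height of 24 reads (quartiles 18 and 33), against 28 reads (21 and 42) in 8602 other genes. In Des-/- basal the medians were 23.5 reads in 54 members and 30 in other genes. In Des+/+ swim they were 19 reads in 31 members and 23 in other genes, and in Des-/- swim 21 reads in 41 members and 27 in other genes. Members thus lay below the other genes in all 4 libraries, with 36.4 as their median percentile among all promoter heights in Des+/+ basal and 27.3 in Des-/- swim. Peaks over the starts of all 78 Mrp genes, whichever gene is named, had medians of 27 reads in both basal libraries, against 31 in Des+/+ and 33 in Des-/- for other genes. After swim they were 22 in Des+/+ and 23 in Des-/-, against 25 and 29. Counting error alone puts 24 reads between 15.4 and 35.7 and 15 reads between 8.40 and 24.7 (exact 95% Poisson intervals). Peaks below 20 reads made up 31.1% of the members' highest peaks in Des+/+ and 24.1% in Des-/- at rest, against 20.5% and 18.7% of those of other genes. After swim they made up 51.6% and 39%, against 32% and 21.1%.

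Member peaks were also narrow. The widest promoter peak of a member had a median width of 673 bp in Des+/+ basal, against 1039 bp in other genes. In Des-/- basal the medians were 754.5 and 1082.5 bp, and after swim they were 635 and 887 bp in Des+/+ and 561 and 929 bp in Des-/-. The peaks sat over or just past the start of the gene. In Des+/+ basal 40 of 45 members had their highest peak over the start, and its summit lay a median 170 bp downstream, against 183 bp in other genes. Input reads under the member peaks were a median 3 in every list but Des-/- swim, where they were 5 in members and 6 in other genes. The median fold enrichment over input was, at rest, 6.67 in members and 7.5 in other genes of Des+/+ and 6.25 and 8.18 in Des-/-. After swim it was 6 in members and in other genes of Des+/+, and 3.17 and 4 in Des-/-. By fold enrichment members were therefore level with other genes in Des+/+ swim and lower in the other libraries.

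**Figure D1:**
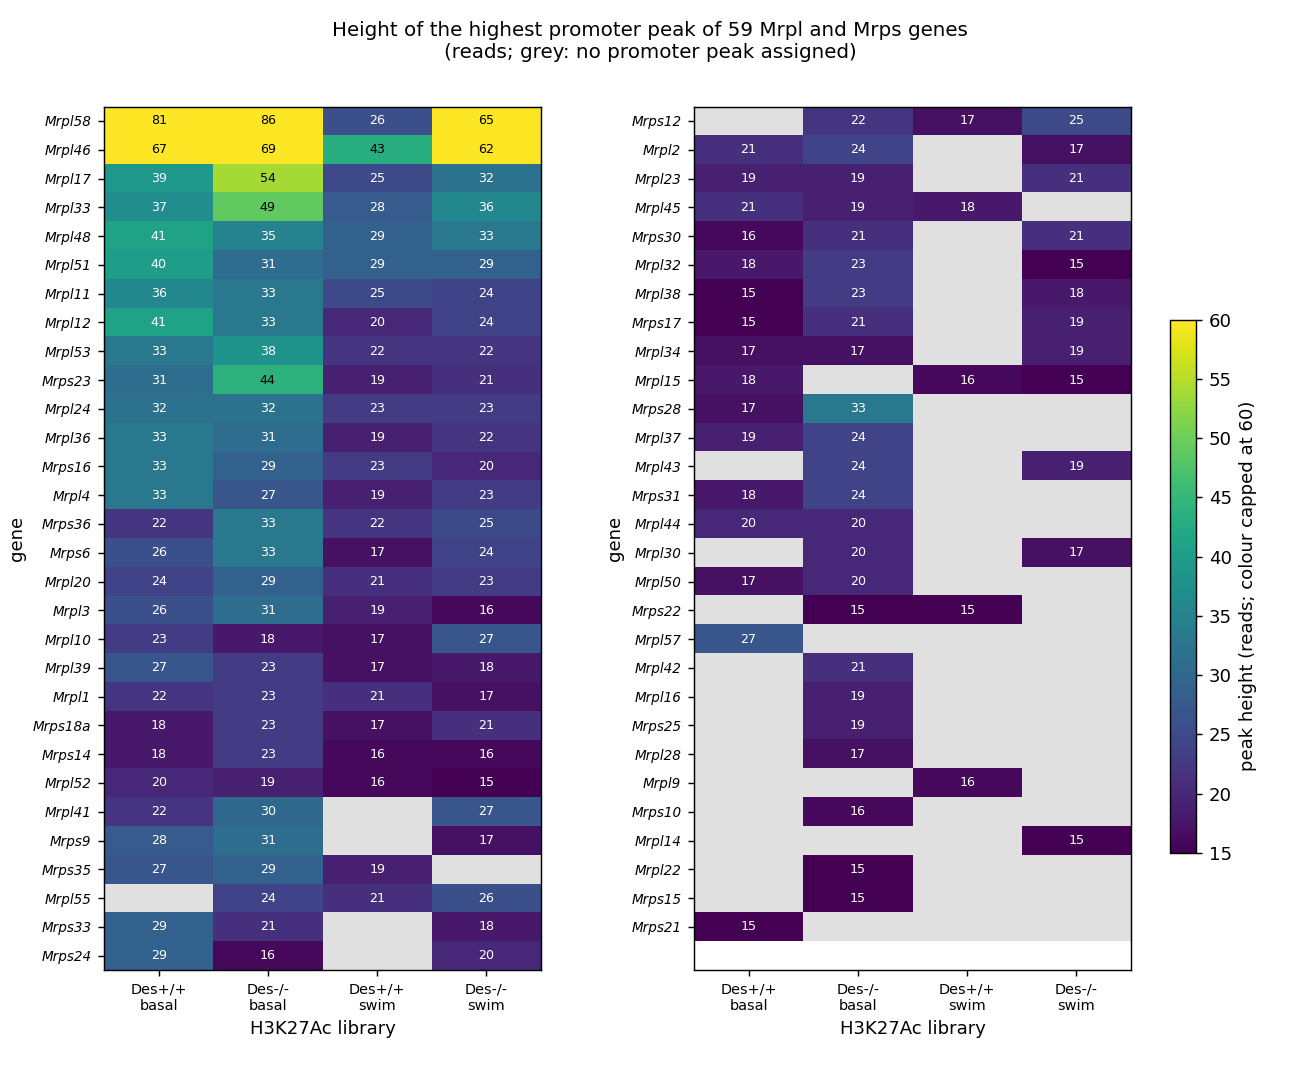
Height in reads of the highest promoter peak of each of the 59 Mrpl and Mrps genes (rows) in the 4 H3K27Ac libraries (columns), ordered by the number of lists with a peak and by summed height; grey cells have no assigned promoter peak. The colour scale runs from 15 to 60 reads, and 24 genes have a value in all 4 columns.

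Among genes that the lists name, the highest promoter peaks belonged to the large subunit. Mrpl58 encodes a peptidyl-tRNA hydrolase of the large subunit that frees stalled ribosomes. Its highest promoter peak measured 81 reads in Des+/+ and 86 in Des-/- at rest, and 26 and 65 in the same order after swim. In Des+/+ basal this peak lay 1830 bp from the transcript start that the list gives, in the 3′ UTR of the gene (chromosome 11, 115411990 to 115414001, GRCm38), and the peak over the gene's own first start was lower, at 43, 42, 26 and 38 reads. The 3′ peak was not gone in Des+/+ swim. It measured 59 reads there, and the list named the neighbouring Atp5pd, a subunit gene of ATP synthase, in its place.

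Mrpl46 encodes another large-subunit protein. Its peak measured 67 reads in Des+/+ and 69 in Des-/- at rest, and 43 and 62 in the same order after swim, and it covers the start of Mrps11 as well, 30 bp away on the opposite strand. Mrpl48 had 41, 35, 29 and 33 reads in the same order. Another start of Mrpl48, 304 bp from that of Rab6a, lay under a higher peak named for Rab6a. That peak measured 47, 59, 43 and 48 reads. By named peaks Mrpl46, Mrpl48 and Mrpl58 were the highest in Des+/+ basal, Mrpl12 being level with Mrpl48 there. At the other end, Mrpl38, Mrps17 and Mrps21 sat at 15 reads in Des+/+ basal. Peaks named for these 3 were missing from Des+/+ swim, and none was named for Mrps21 in either Des-/- list. Another start of Mrps21 lay under a peak named for C920021L13Rik, of 24 reads in Des+/+ and 22 in Des-/- at rest and 21 in Des-/- after swim.

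Genes that stand for particular jobs of the ribosome spread over this range. Mrpl10, Mrpl11 and Mrpl12 build the stalk, to which translation factors bind. Mrpl11 had 36 reads in Des+/+ and 33 in Des-/- at rest, and 25 and 24 in the same order after swim, and Mrpl12 had 41, 33, 20 and 24. Mrpl10 had 23, 18, 17 and 27 reads, the only 1 of the 3 that was highest in Des-/- swim. Mrpl45, which faces the inner membrane at the exit of the peptide tunnel, had 21 reads in Des+/+ and 19 in Des-/- at rest, 18 in Des+/+ after swim and no promoter peak in Des-/- swim. Mrps12, counterpart of the bacterial protein at the decoding centre, had no promoter peak in Des+/+ at rest, where Des-/- had 22 reads, and after swim 17 reads in Des+/+ and 25 in Des-/-. A Des+/+ basal peak of 29 reads that overlaps the swim peak was named for its neighbour Sars2. Of the genes known for inherited heart disease, Mrpl3 (26, 31, 19 and 16 reads) and Mrps14 (18, 23, 16 and 16) had a peak in every list. Mrpl44 had 20 reads in both basal lists and none after swim, and Mrps22 had 15 reads in each of Des-/- basal and Des+/+ swim and no other peak. Mrps36 carries the family name but is a protein of the 2-oxoglutarate dehydrogenase complex. It had 22, 33, 22 and 25 reads and was left out of the subunit and origin groups.

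A second promoter peak was uncommon. Of the 45 members with a promoter peak in Des+/+ basal, 17.8% had more than 1, against 22.9% of other genes, and in the other lists 7.41%, 6.45% and 9.76% did, against 22.5%, 20.9% and 19.3%. Mrpl17 and Mrpl48 had 2 in every list, and Mrps23 had 3 in both basal lists and 1 in both swim lists. The narrowest peaks in Des+/+ basal were those of Mrpl15 (289 bp), Mrpl45 (297 bp) and Mrpl44 (300 bp). The widest were those of Mrpl58 (2012 bp, the 3′ peak), Mrps23 (1906 bp) and Mrpl17 (1310 bp). Outside promoters, 7 members had peaks, 6 of these peaks at Mrpl33, in introns, and 4 upstream of Mrpl45. The nearer of the upstream Mrpl45 peaks, at a distance of -5301 bp from the start in Des-/- basal, measured 21 reads in Des+/+ and 29 in Des-/- at rest and 16 in Des+/+ after swim, and none was assigned there in Des-/- swim.

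Sequences of 6 promoters are shown, 3 from the highest members and 3 from members with no peak named for them after swim. Each runs from 170 bases before to 30 bases past the RefSeq start (GRCm38.p6), 5′ to 3′ along the gene. Capitals mark CCGGAAG, the core bound by ETS-family factors such as GABP, on either strand. The first set holds the highest members that carry this motif, Mrpl58 at chr11:115403582-115403781 (+ strand), Mrpl48 at chr7:100583101-100583300 (- strand) and Mrpl51 at chr6:125192030-125192229 (+ strand). Peaks over these stretches measured 43, 42, 26 and 38 reads for Mrpl58, 41, 35, 29 and 33 for Mrpl48, and 40, 31, 29 and 29 for Mrpl51. The Mrpl48 stretch lies under the peak named for Mrpl48 and not at its other start beside Rab6a.
Mrpl58: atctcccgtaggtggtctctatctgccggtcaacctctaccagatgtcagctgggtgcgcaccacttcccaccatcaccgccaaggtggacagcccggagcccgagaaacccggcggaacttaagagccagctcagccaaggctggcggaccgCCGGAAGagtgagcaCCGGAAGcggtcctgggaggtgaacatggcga
Mrpl48: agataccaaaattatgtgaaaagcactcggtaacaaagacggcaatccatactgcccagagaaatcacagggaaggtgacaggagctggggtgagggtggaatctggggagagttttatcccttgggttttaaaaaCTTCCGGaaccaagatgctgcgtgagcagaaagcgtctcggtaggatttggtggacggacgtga
Mrpl51: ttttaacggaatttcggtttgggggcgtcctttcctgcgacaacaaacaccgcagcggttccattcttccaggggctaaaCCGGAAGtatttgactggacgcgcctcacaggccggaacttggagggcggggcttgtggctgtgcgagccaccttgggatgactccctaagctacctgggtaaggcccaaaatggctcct

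The second set holds members with named peaks in both basal lists and in neither swim list, Mrpl44 at chr1:79775848-79776047 (+ strand), Mrpl37 at chr4:107066837-107067036 (- strand) and Mrps31 at chr8:22411170-22411369 (+ strand). Over Mrpl37 and Mrps31 the basal peaks measured 19 and 18 reads in Des+/+ and 24 reads each in Des-/-. The Mrpl44 peak began at 79776100 in Des+/+ basal, just past the printed stretch. None of these 3 stretches holds CCGGAAG.
Mrpl44: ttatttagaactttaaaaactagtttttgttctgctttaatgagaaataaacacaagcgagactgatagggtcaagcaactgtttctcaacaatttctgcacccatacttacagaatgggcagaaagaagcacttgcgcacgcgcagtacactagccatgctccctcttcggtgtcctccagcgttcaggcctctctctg
Mrpl37: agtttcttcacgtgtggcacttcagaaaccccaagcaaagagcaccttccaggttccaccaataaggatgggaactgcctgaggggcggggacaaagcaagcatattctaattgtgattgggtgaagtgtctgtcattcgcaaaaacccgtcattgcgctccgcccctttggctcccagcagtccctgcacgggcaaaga
Mrps31: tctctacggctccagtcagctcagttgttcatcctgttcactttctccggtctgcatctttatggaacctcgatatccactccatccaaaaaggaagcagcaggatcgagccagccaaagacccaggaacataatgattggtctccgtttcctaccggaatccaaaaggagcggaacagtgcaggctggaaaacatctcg

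Motifs were counted on both strands in windows from 250 bases before to 50 bases after the RefSeq start, which were at hand for 55 of the 60 members. CCGGAAG was present in 20 of 55 members (36.4%), in 21% of other genes with a promoter peak and in 9.86% of all other genes in the table. GCATGCGC, the NRF1 site, was present in 7 of 55 (12.7%), against 6.4% and 3.03%. AAGATGGC, the YY1 site, was present in 8 of 55 (14.5%), against 5.43% and 3.15%. NRF1, GABP and YY1 are factors known for their sites in nuclear genes of mitochondrial proteins, and at least 1 of the 3 motifs stood in 50.9% of members and 29.8% of other genes with a promoter peak. GGGCGG, the SP site, was less frequent in members than in other genes with a promoter peak, at 45.5% against 70.9%. It was more frequent than in all other genes in the table (38.2%). CCAAT, the NFY site, stood in 45.5%, against 42.6% and 41.1% in the same 2 backgrounds. TATAAA stood in 9.09%, against 8.95% and 15.7%. Median GC content was 57.7% in members, 62.7% in other genes with a promoter peak and 53.3% in all other genes. Of the 23 members with a peak in all 4 lists and a window, 11 held CCGGAAG, as did 8 of 31 with a peak in 1 to 3 lists. These are matches of letters in a window and not measured binding.

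More Mrp genes were named for a promoter peak in the Des-/- list than in the Des+/+ list, both at rest and after swim. Counted by position, whichever gene is named, the difference at rest was at the share over other genes and the difference after swim was above it, with values given further on. At rest 45 of the 59 members had one in Des+/+ (76.3%, Wilson 95% interval 64.0 to 85.3) and 54 in Des-/- (91.5%, 81.6 to 96.3). After swim 31 had one in Des+/+ (52.5%, 40.04 to 64.7) and 41 in Des-/- (69.5%, 56.9 to 79.7). Among the other 9883 genes the shares were 87.04% and 91.5% at rest and 65.5% and 64.9% after swim. By named peaks, members were thus below the other genes in both Des+/+ lists and close to or above them in both Des-/- lists. The shares are over genes named in at least 1 list, and 7 members entered through Des-/- basal alone (11.9%, against 7.69%). Such members lower the Des+/+ shares by the way they were counted. With all protein-coding genes as the base, 67.9% of 78 Mrp genes had a peak over a start in Des+/+ basal, against 35.5% of others. In Des+/+ swim 43.6% did, against 24.6%. More Mrp genes have another gene's start within 1000 bp on the opposite strand. Among genes with such a neighbour the shares were 72.7% against 67.0% in Des+/+ basal and 51.5% against 49.0% in Des+/+ swim. Without one they were 64.4% against 31.5% and 37.8% against 21.5%. In all, 23 members (39%) were in more Des-/- than Des+/+ lists and 6 (10.2%) in more Des+/+ lists, whereas among other genes these shares were 18% and 14.9%.

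**Figure D2:**
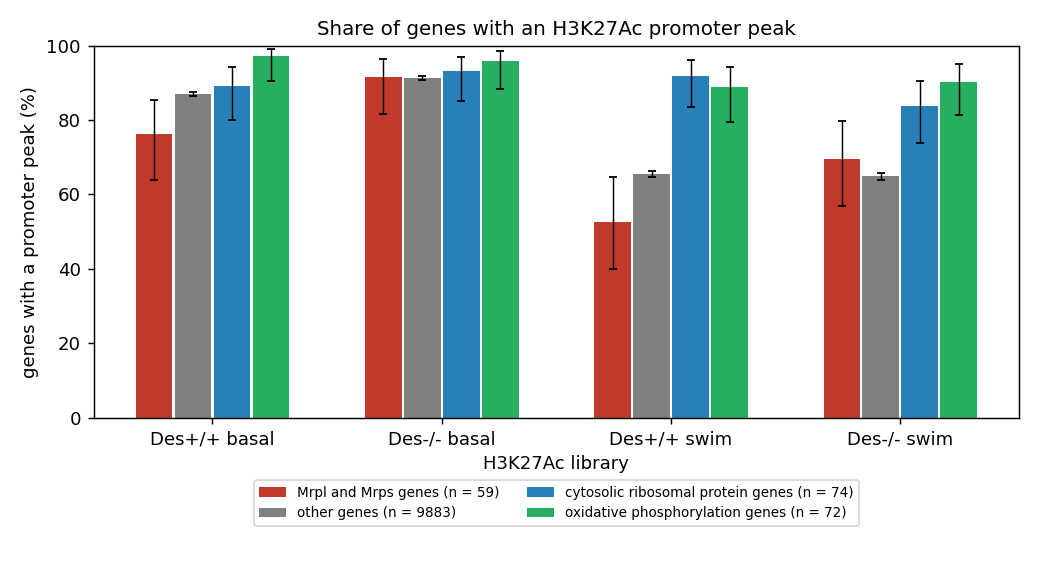
Percent of genes with a promoter peak in each H3K27Ac library, for the 59 Mrpl and Mrps genes, 9883 other genes, 74 cytosolic ribosomal protein genes and 72 oxidative phosphorylation genes, each counted over genes with a promoter peak in at least 1 list. Error bars are Wilson 95% intervals, and the Mrp bars are highest in Des-/- basal (91.5%) and lowest in Des+/+ swim (52.5%).

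The complete set of 4 peaks was present at 24 members (40.7%), against 53% of other genes. Another 16 members were in 3 lists, 8 in 2 and 11 in 1. Of the 35 members that were incomplete, the most common pattern was absence from Des+/+ swim alone. It was seen in Mrpl2, Mrpl23, Mrpl32, Mrpl34, Mrpl38, Mrpl41, Mrps9, Mrps17, Mrps24, Mrps30 and Mrps33, which is 18.6% of members and 7.36% of other genes. A peak in Des-/- basal alone was next, in Mrpl16, Mrpl22, Mrpl28, Mrpl42, Mrps10, Mrps15 and Mrps25 (11.9%, against 7.69%), all of them at 15 to 21 reads. Mrpl37, Mrpl44, Mrpl50, Mrps28 and Mrps31 were named for peaks in both basal lists and in neither swim list (8.47%, against 12.3%). At Mrpl50 a Des-/- swim peak of 19 reads lay over the start and was named for Zfp189.

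At rest, 3 of the 57 members with a promoter peak in either genotype had it in Des+/+ alone and 12 in Des-/- alone. The same held for 6.06% and 10.6% of 9621 other genes. The 3 were Mrpl57 (27 reads), Mrpl15 (18) and Mrps21 (15). The 12 ranged from 15 reads (Mrpl22, Mrps15 and Mrps22) to 24 reads (Mrpl43 and Mrpl55). For 10 of them no peak of Des+/+ basal overlapped the Des-/- peak. Mrps12 is among the 10, although the Des+/+ basal peak of 29 reads named for Sars2 lay within 3000 bp of its start. At Mrpl30 and Mrpl43 an overlapping peak was there and was named for the gene next door, Mitd1 (27 reads) and Twnk (24 reads). The Mrpl57 peak in turn was named for Ska3 in Des-/- basal, at 38 reads.

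After swim, 4 of 45 members had the peak in Des+/+ alone and 14 in Des-/- alone, against 14.6% and 13.7% of 7504 other genes. Under these 14 Des-/- peaks, of 15 to 27 reads, the Des+/+ swim list held no overlapping peak of any name. The highest were Mrpl41 (27 reads), a mitochondria-specific protein, and Mrpl23 and Mrps30 (21 reads each). The 4 in Des+/+ alone were Mrps35 (19 reads), Mrpl45 (18), Mrpl9 (16) and Mrps22 (15), of which Mrpl9 was overlapped in Des-/- swim by a peak named for Oaz3. The markers of cardiomyocytes given above went the opposite way between these libraries, and the part of this in the member difference was not tested.

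In the full lists fewer Mrp genes had a promoter peak after swimming in both genotypes, as did fewer genes at large. In Des+/+, 18 of 49 members had a peak at rest alone and 4 after swim alone, against 27.1% and 3.1% of 8877 other genes. In Des-/-, 15 of 56 had one at rest alone and 2 after swim alone, against 31.1% and 2.88% of 9306 other genes. A peak of another name overlapped in 0 of the 18 and 2 of the 4 (Mrpl9 and Mrps12) in Des+/+, and in 1 of the 15 (Mrpl50) and 1 of the 2 (Mrpl14) in Des-/-. The swim lists are also shorter, and with the 10407 highest peaks taken from every list 51 members and 8549 other genes had a promoter peak in some list. Of these members 62.7% had one in Des+/+ and 80.4% in Des-/- at rest, and 58.8% and 80.4% after swim, against 81.6% and 84.9% at rest and 72.2% and 75% after swim in other genes. At equal length 21.1% of members had a peak at rest alone in Des+/+ and 14.6% in Des-/-, against 18.3% and 19.1% of other genes. A peak after swim alone was held by 15.8% of members in Des+/+ and 14.6% in Des-/-, against 7.70% and 8.39%. In the full lists the members missing after swim were low at rest. In Des+/+ the 18 had a median height of 18.5 reads at rest (15 to 29), against 31 reads in the 27 that kept a peak, and in Des-/- the medians were 19 and 27 reads. The highest to be missing were Mrps24 and Mrps33 (29 reads each) in Des+/+ and Mrps28 (33 reads) in Des-/-. The median height of members in all 4 lists was 32.5 reads in Des+/+ and 31.5 in Des-/- at rest, and 21 and 23 in the same order after swim.

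Low height went with absence in every comparison. Of members at 15 to 19 reads in Des+/+ basal, 11 of 14 had no peak in Des+/+ swim (78.6%), as did 73.3% of other genes of that height. At 20 to 24 reads the shares were 3 of 9 (33.3%) and 46.6%, at 25 to 34 reads 4 of 14 (28.6%) and 15.9%, and at 35 reads or more 0 of 8 and 1.97%. In Des-/- fewer members than other genes of the same height were missing after swim, namely 8 of 13 (61.5%, against 78.4%) at 15 to 19 reads, 5 of 19 (26.3%, against 54.8%) at 20 to 24 reads and 2 of 15 (13.3%, against 27.7%) at 25 to 34 reads. Seen from Des-/- basal, 7 of 13 members at 15 to 19 reads (53.8%) and 5 of 19 at 20 to 24 reads (26.3%) were missing in Des+/+ basal, against 40.9% and 14.2% of other genes. Above that height 0 of 22 were missing. Seen from Des-/- swim, 10 of 16 members at 15 to 19 reads (62.5%) and 3 of 14 at 20 to 24 reads (21.4%) were missing in Des+/+ swim, against 45.6% and 20.4%, and 1 of 8 at 25 to 34 reads (12.5%), against 6.78%. In the opposite direction, 2 of 14 members at 15 to 19 reads in Des+/+ basal were missing in Des-/- basal (14.3%, against 23.2%), as was 1 of 14 at 25 to 34 reads (7.14%, against 2.19%). After swim 4 of 16 at 15 to 19 reads in Des+/+ were missing in Des-/- swim (25%, against 38%).

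**Figure D3:**
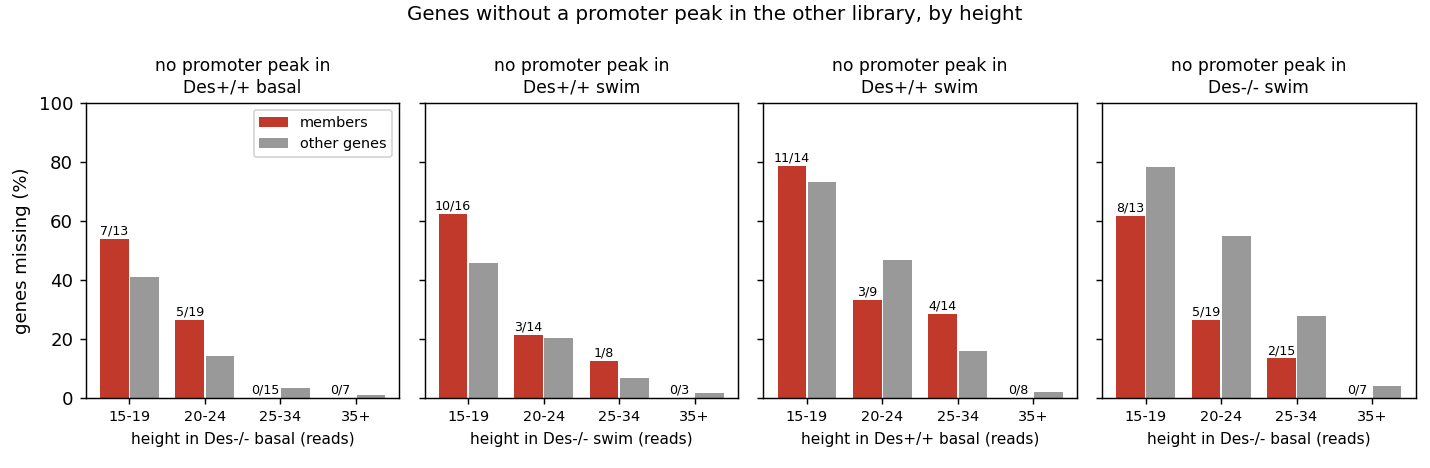
Percent of genes with a promoter peak in 1 library that had none in the other, by height in the first library in reads, for members (red, with counts) and other genes (grey). From left to right the pairs are Des-/- basal to Des+/+ basal, Des-/- swim to Des+/+ swim, Des+/+ basal to Des+/+ swim and Des-/- basal to Des-/- swim, and the share falls with height in each of them for other genes.

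Where a member had a peak in both libraries of a pair, its height changed about as much as that of the median gene. Heights of all genes shifted between libraries, by a median log2 ratio of 0.12 for Des-/- against Des+/+ at rest, 0.18 after swim, -0.50 for swim against basal in Des+/+ and -0.45 in Des-/-, and changes are given relative to these. The median relative log2 change was 0.0095 over 42 members at rest and 0.0075 over 27 after swim for the genotypes. For swim against basal it was -0.0040 over 27 members in Des+/+ and 0.094 over 39 in Des-/-, where 25 lay above 0 and 14 below. Members with a peak in 1 library of a pair alone have no value here. The quartiles of other genes were -0.19 and 0.21 for the genotypes at rest. All these pairs share libraries with each other, so the 4 medians are not independent.

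A relative change of at least 1.5-fold was rare among members, except for rises of low members from basal to swim in Des-/-. For Des-/- against Des+/+ at rest 1 member rose, Mrps28, from 17 to 33 reads (0.84), and 1 fell, Mrps24, from 29 to 16 reads (-0.97), while 3.02% of other genes rose and 3.01% fell. Mrps33 (29 to 21 reads) and Mrpl51 (40 to 31) came next on the low side, and Mrpl38 (15 to 23) and Mrps36 (22 to 33) on the high side. After swim 1 member was higher in Des-/-, Mrpl58 (1.15), and 0 were lower, against 3.4% and 3.94% of other genes. The Mrpl58 value rests on the naming of its 3′ peak, which by position changed by -0.037, and its start peak by 0.37. The next were Mrpl10 (17 to 27 reads) and Mrps12 (17 to 25), and at the other end Mrpl1 (21 to 17), Mrpl3 (19 to 16) and Mrps16 (23 to 20).

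For swim against basal in Des+/+, 0 members rose by 1.5-fold and 1 fell, again Mrpl58 (-1.14), against 3.9% and 3.02% of other genes. By position its 3′ peak changed by 0.038 and its start peak by -0.23. Mrpl12 (41 to 20 reads) and Mrpl4 (33 to 19) followed, and Mrps36 (22 in both), Mrpl1 (22 to 21) and Mrps18a (18 to 17) held their height best. In Des-/-, 5 of 39 members rose relative to all genes, against 4.15% of other genes, and 1 fell, against 2.83%. The 5 had 16 to 22 reads at rest. Heights were lower after swim and no list goes below 15 reads. A low member that fell by 1.5-fold would therefore be missing and not counted as a fall, in either genotype. A low member that kept its peak is also shifted toward a rise, because the fall of all genes is subtracted. Other genes were higher at rest, so their 4.15% is not matched for height. Rises and falls can thus not be weighed against each other here, and the rises are not read as a result about members. Mrpl10 rose the most, from 18 to 27 reads (1.03), followed by Mrps24 (16 to 20, 0.77) and Mrps12 (22 to 25, 0.63), with Mrpl23 (19 to 21) and Mrpl34 (17 to 19) beside them. Mrps23 fell from 44 to 21 reads (-0.62), and Mrpl3 (31 to 16) and Mrps9 (31 to 17) were next. With such heights a step of 1.5-fold is a difference of few reads, and input under the member peaks was higher in Des-/- swim. The part of input in these changes was not tested. With fold enrichment in place of height many more genes pass 1.5-fold. For Des-/- against Des+/+ at rest 26.2% of members rose and 11.9% fell, against 16.8% and 15.6% of other genes, and after swim 37.0% rose and 18.5% fell, against 17.4% and 16.8%. For swim against basal 14.8% rose and 22.2% fell in Des+/+, against 18.2% and 16.9%, and 28.2% rose and 5.13% fell in Des-/-, against 19.95% and 17.8%.

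**Figure D4:**
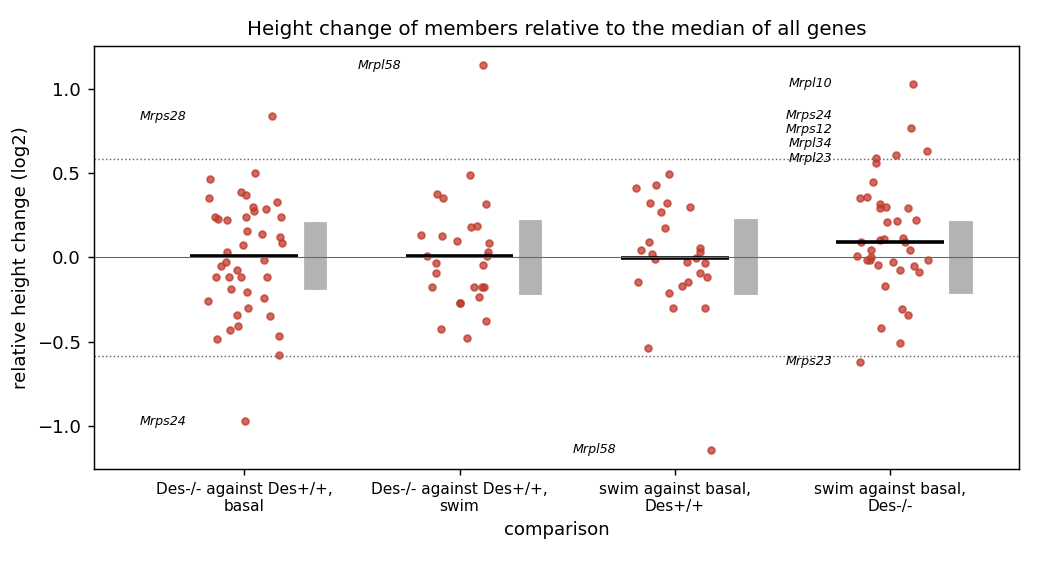
Relative log2 height change of each member with a promoter peak in both libraries (points) in the 4 comparisons, after subtraction of the median over all genes; black lines are member medians and grey boxes run between the quartiles of other genes. Dotted lines mark 1.5-fold, named genes lie past them, and the 4 black lines lie between -0.0040 and 0.094.

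The subunits and the kinds of protein differed most in Des-/- swim. Of 41 large-subunit members, 32, 37, 23 and 31 had a promoter peak in Des+/+ basal, Des-/- basal, Des+/+ swim and Des-/- swim. Of 17 small-subunit members, 12, 16, 7 and 9 did, so the share after swim was 41.2% and 52.9% in the small subunit, against 56.1% and 75.6% in the large. In Des-/- 43.8% of small-subunit and 20.5% of large-subunit members had a peak at rest alone. The Wilson intervals of the shares after swim overlap, from 31.0 to 73.8 against 60.7 to 86.2 in Des-/-. Members with a bacterial counterpart (34) were present in 24, 30, 18 and 26 cases, and mitochondria-specific members (24) in 20, 23, 12 and 14, which is 76.5% against 58.3% in Des-/- swim. All 4 of these groups had more peaks in Des-/- than in Des+/+, both at rest and after swim.

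Cytosolic ribosomal protein genes and nuclear genes of oxidative phosphorylation were higher and more complete than members. Of 74 cytosolic ribosomal protein genes, which build the other ribosome of the cell, 66, 69, 68 and 62 had a promoter peak in the 4 lists, with median heights of 36.5, 42, 27 and 32 reads. Of 72 nuclear genes of oxidative phosphorylation, whose products assemble with the proteins made by mitochondrial ribosomes, 70, 69, 64 and 65 had a peak, at median heights of 41, 44, 32 and 31 reads. In Des+/+ swim 91.9% of the cytosolic and 52.5% of the mitochondrial ribosomal protein genes had a peak. Neither of these groups had more peaks in Des-/- than in Des+/+ in both states, but the genes of tRNA charging and of mitochondrial transcription did, as the next counts show.

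Other genes of mitochondrial translation varied, and low heights were not particular to members. Median heights in the 4 lists were 22, 18, 24.5 and 24.5 reads for assembly and rRNA maturation. They were 27.5, 26.5, 20.5 and 22 reads for translation factors and 24, 24, 17.5 and 18.5 for tRNA charging. For mitochondrial transcription they were 19, 17, 16 (1 gene) and 18 reads. Of 5 ribosomal proteins named outside the family, Chchd1 (42, 56, 32 and 38 reads) and Aurkaip1 (38, 37, 23 and 28), both of the small subunit, had a peak in every list, and Dap3, Ptcd3 and Gadd45gip1 were named in none for a promoter. Of 23 genes of ribosome assembly and rRNA maturation, 15 had a promoter peak in some list, namely 11 in Des+/+ and 14 in Des-/- at rest and 4 in each swim list. Malsu1, a factor for the large subunit, was the highest of them (45, 49, 29 and 38 reads). Of 17 translation factors, 15 had a promoter peak in some list, 12, 14, 8 and 7 in the 4 lists, and of these 15 the share in Des+/+ was 80% at rest and 53.3% after swim, close to that of members, with Lrpprc, which stabilises mitochondrial mRNA (70, 79, 48 and 41 reads), and Mrrf, the recycling factor (64, 78, 46 and 50), on top. Of 20 genes for charging mitochondrial tRNA, 15 had one in some list and 12, 13, 8 and 10 in the 4 lists, and of 7 genes of mitochondrial transcription 6 did, with 4, 5, 1 and 4. Tfam, which packages and transcribes mitochondrial DNA, had 19, 26, 16 and 20 reads.

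The naming of 1 gene per peak bears on Mrp genes because many share their promoter with a neighbour. GENCODE vM21 holds 78 protein-coding Mrpl and Mrps genes, of which 33 (42.3%) have the start of another protein-coding gene on the opposite strand within 1000 bp, against 11.3% of other protein-coding genes. In no list are 18 of the 78 named, and 14 of these 18 have such a neighbour. A peak nevertheless lay over the start of 11 of the 18, in all 4 libraries for 8 and in 3 for the others. Mrps18b, Mrps7 and Mrps5, small-subunit genes, had the highest of all Mrp starts, at 107, 96 and 89 reads at rest in Des+/+ and 104, 96 and 90 reads in Des-/-. After swim they had 79, 64 and 59 reads in Des+/+ and 83, 74 and 65 in Des-/-. Their peaks (chromosome 17, 35915890 to 35919114; chromosome 11, 115603250 to 115604874; chromosome 2, 127587041 to 127587911; Des+/+ basal, GRCm38) were named for Mir1894 or Ppp1r10, Gga3 and Zfp661. Whether acetylation there belongs to either gene of a pair cannot be told apart. The starts of Mrpl19, Mrpl21, Mrpl35, Mrps2, Mrps18c and Mrps26 had no peak within 3000 bp. Mrpl49 had none over its GENCODE start, but peaks of 29 and 39 reads at rest and 19 and 32 reads after swim, in Des+/+ and Des-/-, lay within 3000 bp.

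**Figure D5:**
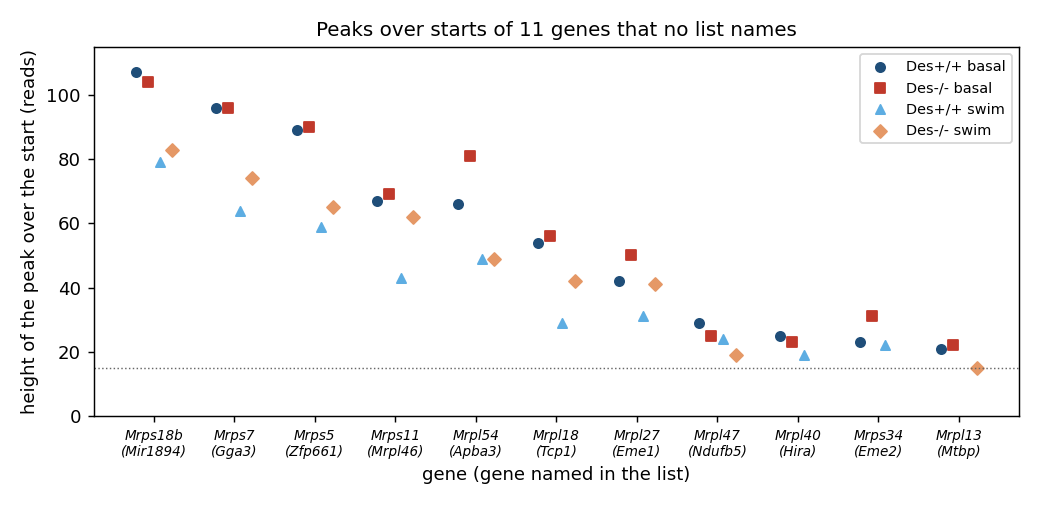
Height in reads of the H3K27Ac peak over the start of 11 Mrpl and Mrps genes that no list names, in the 4 libraries (symbols), with the gene named for the peak in Des+/+ basal in brackets. The dotted line is the smallest height, 15 reads, and where a gene has a peak in both states of a genotype its value in swim is below that at rest.

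Counted this way, by a peak over any GENCODE start whichever gene is named, 53 of the 78 genes had a peak at rest in Des+/+ (67.9%) and 57 in Des-/- (73.1%). After swim 34 did in Des+/+ (43.6%) and 41 in Des-/- (52.6%). Other protein-coding genes stood at 35.5%, 37.7%, 24.6% and 25.0%. Fewer of them have another gene's start within 1000 bp on the opposite strand. The order of the libraries was as before, and the gap between genotypes was 4 genes at rest and 7 after swim. At rest 8 of 61 genes with a peak in either list had it in Des-/- alone (13.1%) and 4 in Des+/+ alone (6.56%), against 12.6% and 7.04% of other genes, so by position the shares at rest were close to those of other genes. After swim 15 of 49 had it in Des-/- alone (30.6%) and 8 in Des+/+ alone (16.3%), against 16.6% and 15.1%.

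Lamin A/C, a nuclear lamina protein that was also precipitated, gave lists of 188 to 831 peaks. In none of the 4 lists was a peak assigned to an Mrp gene, 0 of 60, which allows a share of up to 5% by counting error. A lamin A/C peak lay over or within 3000 bp of 0 of the 78 genes and of 2.20% of 21764 other protein-coding genes, a share so small that 0 of 78 is not a result about Mrp genes.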

How the data were processed

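H3K27Ac and lamin A/C ChIP-seq with matched input was performed on isolated adult cardiomyocytes, with 1 library per genotype, condition and antibody. The authors aligned reads to GRCm38 (mm10) with Bowtie2 2.4.4, handled alignments with SAMtools 1.13, called peaks in each library against its input with an in-house script, and named each peak with ChIPseeker 1.36.0. The deposited lists give for each peak the coverage signal, that is overlapping reads in ChIP and in input, the fold ratio of these after 1 is added to each, and the signed distance to a transcript start as a score. The deposited p-value and FDR columns were used in no comparison. Read totals per library are not in the lists.

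Members were taken by symbol, and their highest and widest peaks within 3000 bp of a start were compared across lists with Python 3.11.15, pandas 2.3.3, NumPy 2.4.6 and SciPy 1.17.1, and plotted with Matplotlib 3.10.9. Change was the log2 ratio of heights minus its median over all genes with a peak in both lists, and a call was 1.5-fold. With 1 library per group no test between groups was made. Intervals are Wilson 95% for shares and exact Poisson for heights, and cover counting error only. Scripts were tested on simulated data. Promoter sequences are from RefSeq (GRCm38.p6) and starts by position from GENCODE vM21. Samples were grouped by their titles. Named genes were those missing from a list, the 3 highest, lowest, widest and narrowest in Des+/+ basal, the 3 largest rises and falls in each comparison, up to 5 with several promoter peaks, and genes fixed by role. The genes in no list, Mrpl46 as neighbour of Mrps11, Mrpl33 and the genes of other lists were named after their values were seen. Members and lists were chosen with earlier results of these data known. Alternatives covered the promoter distance, height minimum, list length, assignment, use of fold or summed height, scaling, missing heights and call size. The count over all 78 genes was added after seeing the data.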

Additional observations from a re-analysis of the deposited data

Results flagged for a closer look

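Mrps22, a mitochondria-specific protein of the small subunit, had promoter peaks of opposite pattern in the genotypes. Its peak measured 15 reads in Des-/- basal and 15 reads in Des+/+ swim, and the Des+/+ basal and Des-/- swim lists gave it none. The direction of the genotype difference at rest was thus opposite to that after swim, and the direction of the swim difference opposite between genotypes. Both peaks are at the smallest height that a list holds, and the difference was not tested.

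The median relative log2 change of members from basal to swim was -0.0040 in Des+/+ (27 members) and 0.094 in Des-/- (39 members). The signs differ, each group is 1 library per state, and the difference was not tested.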

How the results depend on the processing

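Of 172 values of 28 results recomputed under an alternative, 116 stayed within 1.5-fold of the reported count, or for medians within the 95% interval of the median over members, and 56 moved. The medians of relative change had no test and lie close to 0, so their sign is not read as a direction. For the genotypes at rest the sign turned with fold enrichment (-0.057), summed heights (-0.071), any peak near the start (-0.059) and all 78 genes by position (-0.067), after swim with the last pair (-0.038 and -0.046), and for swim in Des+/+ with all 78 genes (0.047) and missing heights set to 15 reads (0.023). Members with a promoter peak were more numerous in Des-/- than in Des+/+ in both states under each alternative that recounts them, though by position over all 78 genes the difference at rest was at the share over other genes. For the moved values the cause was not tested.

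With peaks of 20 reads or more only, 15 members of Des+/+ and 25 of Des-/- had a promoter peak after swim, 5 were in Des+/+ alone at rest, 1 was in Des+/+ alone after swim, and 1 was in swim alone in Des+/+. With equal numbers of peaks, 6 were in Des+/+ alone at rest, 8 in basal alone in Des+/+, and 7 in basal alone and 7 in swim alone in Des-/-. With any peak near the start, 2 were in swim alone in Des+/+ and 1 in Des-/-, and calls were 2 down for the genotypes at rest, 0 up for the genotypes after swim and 0 down for swim in Des+/+. With all 78 genes by position, 8 were in Des+/+ alone after swim and 1 in swim alone in Des+/+, and calls were 2 down at rest and 0 up after swim for the genotypes, and 1 up and 0 down for swim in Des+/+. Within 1000 bp, 0 rose for the genotypes after swim and 0 fell for swim in Des+/+.

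With fold enrichment, the member median over that of other genes was 1 in Des+/+ swim, the genotype median change after swim was 0.22, and calls up and down were 11 and 5 for the genotypes at rest, 10 and 5 after swim, 4 and 6 for swim in Des+/+ and 11 and 2 in Des-/-. With summed heights, the ratio to other genes was 0.671 for Des-/- at rest, and 0.731 for Des+/+ and 0.70 for Des-/- after swim, and calls were 5 down at rest and 2 up after swim for the genotypes and 4 down for swim in Des+/+. Without scaling, median changes were 0.18 for the genotypes after swim, -0.50 for swim in Des+/+ and -0.35 in Des-/-, and calls were 3 up at rest and 2 up after swim for the genotypes, 10 down for swim in Des+/+, and 1 up and 6 down in Des-/-. With missing heights set to 15 reads, calls were 2 down at rest and 2 up after swim for the genotypes, and 2 up and 2 down for swim in Des+/+ and 3 up and 2 down in Des-/-. At 2-fold, 0 rose and 0 fell at rest for the genotypes, and 1 rose and 0 fell for swim in Des-/-.

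No paired analysis was possible because each group is 1 library. Depth is known only through peak heights, and a gene below 15 reads has no value, so absence from a list is no measure of zero acetylation.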
